A study of Arabidopsis thaliana with 12 samples.

Results

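The comparison described here set whole Arabidopsis thaliana seedlings of the transgenic line MUTEv5#2 against those of the line MUTE. It used 6 of the 12 RNA-seq libraries of the series, 3 of each line, chosen by their labels and not by any measured value. MUTE is line 1 and carries the wild-type MUTE allele. MUTEv5#2 is line 2 of the variant MUTEv5, in which arginine 10 is replaced by tryptophan (R10W), and the submitters chose it for a moderate phenotype of clustered stomata. In both lines the MUTE promoter drives the allele and the plants are homozygous in the loss-of-function background mute-3, so the controls carry that mutation and a transgene too. Each library came from 50 pooled whole seedlings collected at 2 days post-germination, after growth at 21 °C with 16 h light and 8 h dark on MS with 1% sucrose. The other 6 libraries are MUTEv5#5 (line 5, the same R10W protein, labelled severe with arrested lineages) and MUTEPPP#3 (line 3, with H3P, E7P and R11P). They served to estimate the spread and for direct contrasts. Within this comparison each genotype is 1 line, so the allele, the line and the site of insertion cannot be told apart in it. MUTEv5#5 is a second line of the R10W allele, and its levels are given beside some results. The p-values rest on the spread between 3 pools of seedlings.

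MUTE is a basic helix-loop-helix transcription factor of the stomatal lineage. It ends the self-renewing divisions that SPEECHLESS (SPCH) starts and commits a cell to become a guard mother cell, which FAMA then takes to a pair of guard cells. The basic region at the start of such proteins contacts DNA, often at a core motif called the E-box, of which the G-box is a well-known form. Whole seedlings hold stomatal lineage cells beside pavement, mesophyll, vascular and root cells, and a library takes in the RNA of all of them. In bulk samples, fewer cells of a type and less RNA per cell cannot be told apart.

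The start of the MUTE coding sequence shows where the variants differ. It lies on the plus strand at chr3:1846531-1846575 of TAIR10.1, read from the RefSeq genome, and the capitals mark codon 10, the arginine codon CGA that R10W alters.
MUTE: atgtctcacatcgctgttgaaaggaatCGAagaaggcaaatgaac
The codons changed in MUTEPPP#3 lie on either side of it in the same stretch, at positions 3 (CAC, H3P), 7 (GAA, E7P) and 11 (AGA, R11P), counted from the start codon. The lines are transgenic, so this is the reference gene and not the sequence of a transgene.

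The MUTE gene itself stood at 6.10, 5.00 and 4.85 CPM (counts scaled to a common total by TMM) in MUTE and at 12.9, 10.8 and 8.26 CPM in MUTEv5#2. All 3 MUTEv5#2 libraries were above all 3 MUTE libraries. The log2 fold change was 1.00 with a standard error (SE) of 0.218, and the p of edgeR's quasi-likelihood test was 0.0315 after Benjamini-Hochberg adjustment across every gene in the fit, here called adjusted p. The call was lost without any 1 of the MUTE libraries and without MUTEv5#2 replicate 1 or 2. It was also lost with only the 6 libraries and with the share of ribosomal and organelle RNA as a covariate. The counts do not tell transcripts of the transgene from those of the mute-3 locus. In MUTEv5#5 the gene stood at 24.5, 14.4 and 16.8 CPM, and the direct contrast of MUTEv5#5 with MUTEv5#2 had a log2 fold change of 0.80 and an adjusted p of 0.2595.

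Library totals over the series ran from 117868477 to 152600239 counts, so that 1 count was worth at most 0.00915 CPM. Pearson's r of log levels over genes, which are not independent replicates, was 0.978 to 0.993 within MUTE, 0.987 to 0.996 within MUTEv5#2 and 0.971 to 0.991 between them. Ribosomal RNA and genes of the organelle genomes took 1.01%, 1.28% and 0.397% of counts in MUTE and 1.1%, 2.5% and 2.92% in MUTEv5#2. MUTE replicate 1 stood apart in clock genes: LATE ELONGATED HYPOCOTYL (LHY) was at 492 CPM there and at 23.4 and 48.5 CPM in the other two MUTE libraries. Neither the hour of harvest nor the strand setting of the counting is given in the sources used here. Where a gene below overlaps another on the opposite strand, it is not known whether the counting told the reads of the pair apart. This holds for RVE1, BHLH38, AT2G30766, ADH1, HRE1, AT4G10270, ORS1, PIF1, AT5G60390, BT5, BBX14, BMY3, G6PD3, ARR9, RAB18, PRK, PGK1, CHLM, CH1, PP2-B13, POLAR, SLAC1, LAF1, AT5G26270, AT1G22690 and AT1G31920. Genes that overlap another on the same strand include FER2, CHLD, BLUS1, AT1G33055 and BBX32.

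Of 22636 genes tested, 1140 (5.04%) passed an adjusted p of 0.05. Of these, 336 (1.48%) were higher and 804 (3.55%) lower in MUTEv5#2 than in MUTE. The changes were mostly small, with a median log2 fold change of 0.545 among the genes that rose and -0.663 among those that fell, and 74 rose and 193 fell by at least 2-fold. Among genes with a mean of at least 100 CPM, 40 rose and 186 fell. With library totals as the only scaling, the median of all genes moved by 0.126 on the log2 scale and the split turned to 1001 higher and 400 lower, so the balance of rises and falls depends on the scaling. All 1140 genes kept their sign under that scaling.

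**Figure D1:**
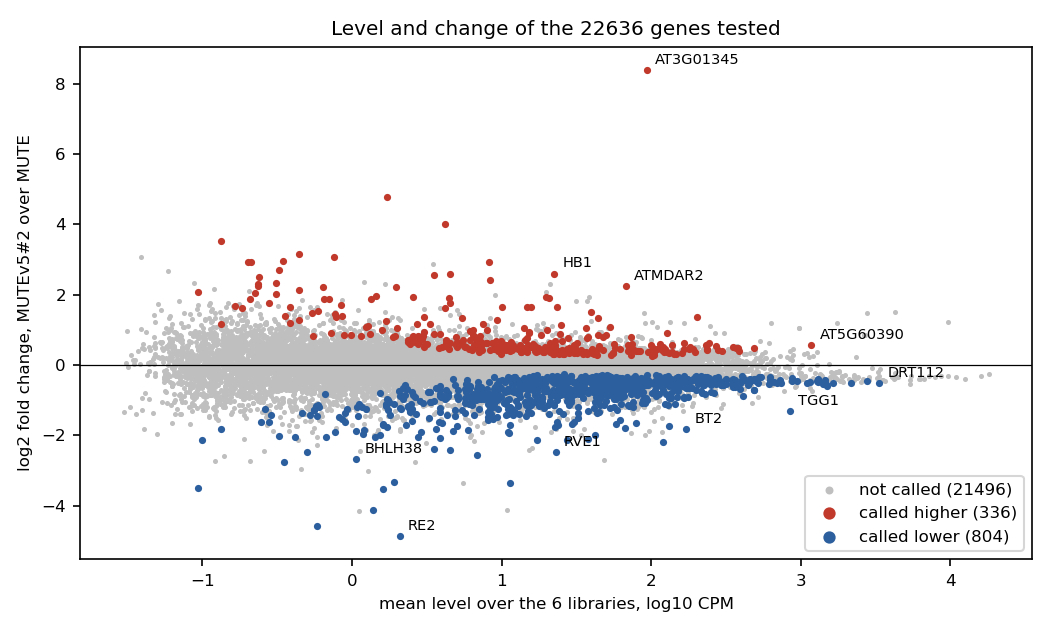
Mean level over the 6 libraries (log10 CPM) against the log2 fold change of MUTEv5#2 over MUTE for the 22636 genes tested. Red points are the 336 genes called higher, blue points the 804 called lower and grey points all others. AT3G01345 stands alone at the top with a log2 fold change of 8.38.

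How many genes passed depended on single libraries. The count was 196 without MUTE replicate 1, 139 without MUTE replicate 2 and 484 without MUTE replicate 3. Without MUTEv5#2 replicate 1 it was 96, without MUTEv5#2 replicate 2 it was 78 and without MUTEv5#2 replicate 3 it was 1115. Leaving out MUTEPPP#3 replicate 2, which is in neither group, gave 615, and leaving out MUTEv5#5 replicate 3 gave 737. With the share of ribosomal and organelle RNA as a covariate 74 genes passed, and with only the 6 libraries 171 did. Of the 1140 genes, 67 were called with each of the 12 libraries left out in turn, and 44 (19 higher, 25 lower) were called under all 21 alternatives. Groups that did not overlap were found for 3216 genes with MUTEv5#2 higher (14.2%) and 3640 with it lower (16.1%), 30.3% of genes in all.

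**Figure D2:**
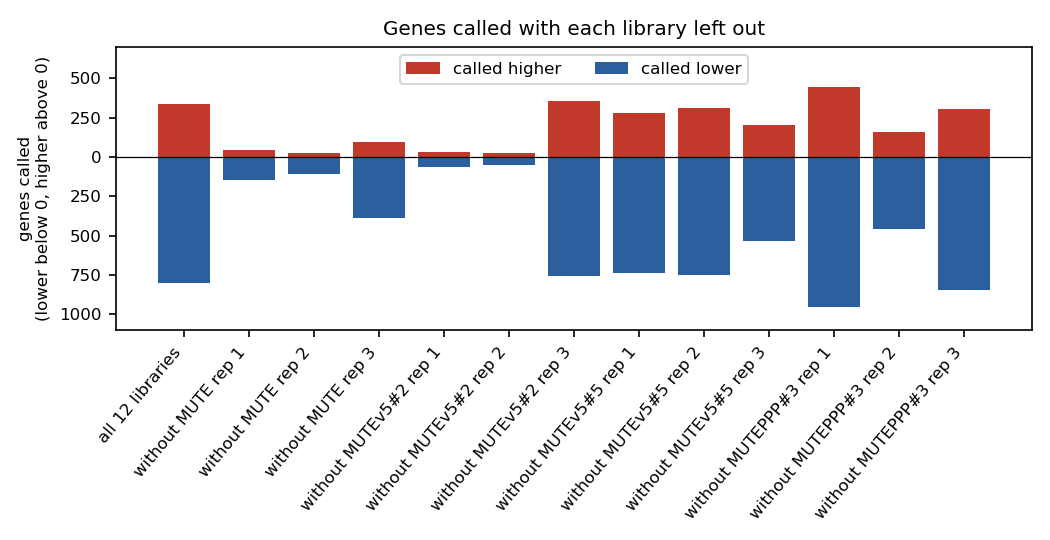
Genes called in MUTEv5#2 over MUTE with all 12 libraries and with each library left out, higher above 0 and lower below 0. The bars are shortest without replicate 1 or 2 of either line, and the total runs from 78 to 1399.

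Genes that respond to low oxygen were among the rises. Plants sense oxygen through cysteine oxidases (PCO1, PCO2) that mark transcription factors of the ethylene response factor class VII for breakdown. When oxygen falls, those factors switch on a small core of genes for fermentation and oxygen use. The members of this list and of the other gene lists below were chosen with earlier results of these data known. Their shares of called genes are therefore a description. Of 24 core hypoxia genes tested, 11 (45.8%) rose, beside 1.48% of all genes, and none fell. The median log2 fold change was 1.55 beside -0.000377 over all genes tested. In 19 of the 24, every MUTEv5#2 library was above every MUTE library, which held for 14.2% of all genes.

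HB1, a non-symbiotic haemoglobin that scavenges nitric oxide, was at 5.04, 4.57 and 9.43 CPM in MUTE and at 47.8, 44.8 and 22.7 CPM in MUTEv5#2. The log2 fold change was 2.60 (SE 0.482, adjusted p = 0.0215). The groups lay far apart, with MUTEv5#2 replicate 3 the lowest of its group. PCO2, an oxygen sensor, was at 7.53, 6.89 and 11.8 CPM in MUTE and at 34.1, 34.2 and 29.2 CPM in MUTEv5#2 (log2 fold change 1.90, SE 0.444, adjusted p = 0.0387). The ethylene receptor gene ETR2 was at 5.24, 11.8 and 17.1 CPM in MUTE and at 33.8, 34.9 and 37.9 CPM in MUTEv5#2 (1.64, SE 0.357, adjusted p = 0.0315). ETR2 varied widely among the MUTE libraries, and the 3 MUTEv5#2 libraries were all above them.

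The enzymes of ethanol fermentation rose less. PDC1, pyruvate decarboxylase, was at 9.43, 12.7 and 17.8 CPM in MUTE and at 21.4, 30.5 and 28.2 CPM in MUTEv5#2 (log2 fold change 1.00, SE 0.24, adjusted p = 0.0407). ADH1, alcohol dehydrogenase, was at 6.16, 3.58 and 4.11 CPM and at 11.4, 11.4 and 8.35 CPM (1.17, SE 0.229, adjusted p = 0.0254). ACO1, which makes ethylene from its precursor, was at 2.3, 2.4 and 3.43 CPM and at 4.45, 5.74 and 4.77 CPM (0.88, SE 0.178, adjusted p = 0.0265). In each of the 3 enzymes the groups did not overlap.

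The other 5 members that rose carry only a locus name in the annotation used. AT2G17850 was nearly silent in MUTE at 0.0349, 0.0215 and 0.329 CPM and reached 2.62, 4.24 and 3.11 CPM in MUTEv5#2. Its log2 fold change of 4.77 (SE 1.01, adjusted p = 0.0293) was the widest on the list. AT4G33560 went from 1.99, 0.811 and 2.97 CPM to 15.4, 16.0 and 12.1 CPM (2.92, adjusted p = 0.0280). For AT3G27220, AT1G33055 and AT4G10270 the log2 fold changes were 1.65, 1.66 and 2.42. The call of AT4G10270 was lost under 10 of the 12 omissions of a library.

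Members that did not pass included regulators of the same response. HRA1, which restrains the response, had a log2 fold change of 2.3 (adjusted p = 0.0526), PCO1 of 2.08 (0.0568), SAD6 of 2.00 (0.0586) and LBD41 of 1.92 (0.0678). MUTE replicate 3 was the highest MUTE library for HRA1 (14.1 CPM beside 3.00 and 4.26 CPM) and for LBD41 (31.2 CPM beside 8.12 and 9.16 CPM). The sucrose synthase genes SUS1 and SUS4 had values of 0.16 and 0.10, the factor HRE1 of 0.54, and AT3G10020 of -0.68.

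The count of core hypoxia genes called depended on single libraries. It went to 2 without MUTE replicate 1, to 0 without MUTE replicate 2 or MUTEv5#2 replicate 1 or 2, to 6 without MUTEv5#2 replicate 3 and to 7 without MUTEPPP#3 replicate 2. Over the 12 omissions of a library the median stayed between 1.37 and 1.87. With the ribosomal and organelle share as a covariate none was called and the median was 1.63, and with only the 6 libraries 2 were called. DESeq2 called 17, and no setting called a member lower.

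The direct contrasts placed the other lines for a few members. MUTEPPP#3 was lower than MUTEv5#2 in AT3G27220 (log2 fold change -1.14, adjusted p = 0.0493) and in AT1G33055 (-2.15, adjusted p = 0.0227), with means of 10.9 and 3.45 CPM beside 7.66 and 4.85 CPM in MUTE. LBD41, which was picked here after its values were seen, was lower in MUTEPPP#3 as well (-2.68, adjusted p = 0.0389). MUTEv5#5 spread widely: HB1 was at 27.5, 8.25 and 18.9 CPM there. No hypoxia gene passed in its contrast with MUTEv5#2, which called only 0.0663% of all genes. The mean log2 level of the list, minus the MUTE mean, was -0.26 to 0.47 in MUTE and 1.35 to 1.45 in MUTEv5#2. It was 0.14 to 1.08 in MUTEv5#5 and 0.50 to 0.64 in MUTEPPP#3. ADH1 stood at 11.3 CPM on average in MUTEPPP#3 and at 10.4 CPM in MUTEv5#2, with a log2 difference of 0.12 (adjusted p = 0.7922).

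**Figure D3:**
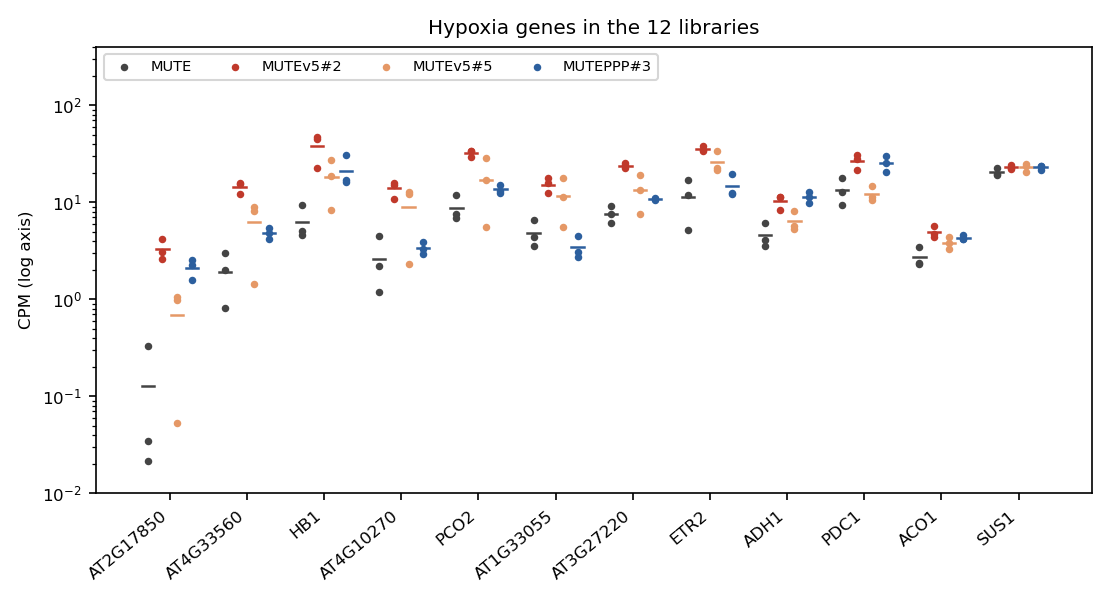
Level of 12 genes of the core hypoxia list in the 12 libraries (CPM, log axis), with a point per library and a bar at the mean of each line. The 11 genes called higher in MUTEv5#2 are followed by SUS1, which was not called (log2 fold change 0.16).

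Some genes of the cytosolic translation machinery rose slightly in MUTEv5#2. These families were picked by product name after the values were seen, so their counts are a description. Translation elongation factor 1-alpha brings charged tRNAs to the ribosome and is encoded by 4 near-identical genes, between which reads may be split wrongly. The most abundant, AT5G60390, was at 930, 944 and 970 CPM in MUTE and at 1506, 1450 and 1267 CPM in MUTEv5#2 (log2 fold change 0.57, SE 0.0911, adjusted p = 0.0140). All 4 genes (elongation factor 1-alpha) rose, by 0.48 to 0.57, and the summed level was 1911 to 1982 CPM in MUTE and 2492 to 3076 CPM in MUTEv5#2, so the groups did not overlap. That sum was also above MUTE in the other variant lines, at 2564 to 2912 CPM in MUTEv5#5 and 2759 to 2862 CPM in MUTEPPP#3. None of the 4 was called without MUTE replicate 2 or MUTEv5#2 replicate 1 or 2, and 1 was called without MUTE replicate 1 or 3.

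Of 344 genes in the family "ribosomal, other name" (ribosomal proteins whose product name does not place them in an organelle), 29 rose and 20 fell, 8.43% and 5.81% beside 1.48% and 3.55% of all genes. The median was 0.29 and 296 of the 344 values were above 0. Several of the 20 that fell are known as plastid ribosomal proteins, among them RPS1, RPL4, RPL15, RPL21C and PSRP3/1. Under library totals as the only scaling 78 were called higher and 4 lower. Without MUTE replicate 2 or MUTEv5#2 replicate 1 no member was called, without MUTE replicate 1 there were 2 rises, without MUTE replicate 3 there were 2 rises and 2 falls, and without MUTEv5#2 replicate 2 there was 1 rise. Leaving out MUTEv5#5 replicate 2 gave 45 rises and 23 falls, leaving out MUTEv5#5 replicate 3 gave 18 and 22, and leaving out MUTEPPP#3 replicate 2 gave 10 and 11. Of 21 genes with organelle-type names 3 fell (PSRP4, PSRP5 and PRPL11, by 0.38 to 0.48), 14.3% beside 3.55% of all genes, and none rose. These genes did not fall as a group: the median was 0.048, with 12 values above 0 and 9 below. In this family (ribosomal, organelle-type name) 0 were called without any 1 of the MUTE libraries or MUTEv5#2 replicate 1 or 2, 1 without MUTEPPP#3 replicate 2, and 5 without MUTEv5#5 replicate 2 or MUTEPPP#3 replicate 1.

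A ribosomal example is AT5G15200, annotated as ribosomal protein S4. It was at 346, 315 and 331 CPM in MUTE and at 479, 428 and 404 CPM in MUTEv5#2 (log2 fold change 0.40, SE 0.0899, adjusted p = 0.0339), with no overlap. The window of 250 bases before its annotated start is shown because it holds a telo-box, a short repeat known from promoters of plant ribosomal protein genes. It lies on the minus strand at chr5:4936430-4936679 (TAIR10.1, RefSeq), and the capitals mark the telo-box as read on that strand, 1 base before the start.
AT5G15200: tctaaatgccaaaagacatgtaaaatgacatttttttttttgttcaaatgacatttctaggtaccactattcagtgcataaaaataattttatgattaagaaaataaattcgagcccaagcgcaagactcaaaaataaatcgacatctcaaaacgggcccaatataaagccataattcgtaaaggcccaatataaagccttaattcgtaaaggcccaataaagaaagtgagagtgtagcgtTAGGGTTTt
The telo-box, searched as AAACCCTA on both strands, was in the windows of 51 of the 344 ribosomal genes with other names (14.8%), in 855 of 22506 windows of all genes (3.8%) and in 19 of the 336 genes that rose (5.65%). A match describes these letters and is not a site shown to be bound.

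Some genes for protein folding rose too. Of 20 genes with chaperonin product names (chaperonin, by product name) 7 rose (35.0% beside 1.48% of all genes) and none fell, and the median was 0.27. The family was mixed, with 13 values above 0 and 7 below, down to -0.47. Its summed level overlapped between the groups, at 2364 to 2592 CPM in MUTE and 2164 to 2665 CPM in MUTEv5#2. Chaperonins are ring-shaped folding machines, and the cytosolic ones act on actin and tubulin among others. No member was called without replicate 1 or 2 of either line, 1 without MUTE replicate 3 and 3 without MUTEPPP#3 replicate 2.

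Several nuclear genes for photosynthesis fell in MUTEv5#2. All 24 genes of the list "photosystems, antenna and Rubisco" had values below 0, with a median of -0.35, but only PSBQA, a subunit of the oxygen-evolving complex, passed. PSBQA was at 1752, 1650 and 1619 CPM in MUTE and at 1258, 1177 and 1269 CPM in MUTEv5#2 (log2 fold change -0.44, SE 0.0953, adjusted p = 0.0315). In 17 of the 24 the groups did not overlap, beside 16.1% of all genes in that direction. The mean log2 level of the 24, minus the MUTE mean, was -0.41 to -0.22 in MUTEv5#2. It was -0.30 to -0.07 in MUTEv5#5 and -0.60 to -0.26 in MUTEPPP#3. The most abundant gene that fell was DRT112, a plastocyanin that carries electrons between cytochrome b6f and photosystem I, at 3948, 3848 and 3964 CPM in MUTE and 2636, 2615 and 3002.5 CPM in MUTEv5#2. Its log2 fold change was -0.51 (SE 0.117, adjusted p = 0.0365), and the groups were clearly apart.

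A wider family of 51 genes chosen by product name after the values were seen (photosystem, by product name) had 13 falls, 25.5% beside 3.55% of all genes, and no rise. In 33 of the 51 the groups did not overlap (16.1% of all genes), and 50 values were below 0. Without MUTE replicate 1 or 2 there was 1 call, without MUTE replicate 3 or MUTEPPP#3 replicate 2 there were 3, without MUTEv5#5 replicate 3 there were 7 and without MUTEv5#2 replicate 1 or 2 there was none.

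Genes of carbon fixation and of the salvage of its by-products fell as well. The lists of these pathways were added after the values were seen. Of 19 Calvin cycle genes 6 fell, and of 16 photorespiration genes 5 fell, which is 31.6% and 31.2% beside 3.55% of all genes. The medians were -0.41 and -0.42 with every value below 0, and that of photorespiration was -0.26 without MUTE replicate 1. PRK, which makes the acceptor of carbon dioxide, was at 2132, 1673 and 1617 CPM in MUTE and at 1193, 1195 and 1190 CPM in MUTEv5#2 (log2 fold change -0.60, SE 0.111, adjusted p = 0.0215). PGK1, phosphoglycerate kinase, was at 1828, 1663 and 1733 CPM and at 1096, 1136 and 1338 CPM (-0.55, SE 0.0957, adjusted p = 0.0188). Neither gene's groups overlapped, and MUTE replicate 1 was the highest library for PRK. SHM1, the serine transhydroxymethyltransferase of photorespiration, was at 2601, 2568 and 2510 CPM and at 1716, 1653 and 2006 CPM (-0.51, adjusted p = 0.0280).

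Chlorophyll synthesis showed values below 0 in all 12 genes of its list, with a median of -0.43, and 3 fell (25.0% beside 3.55% of all genes). The mean log2 level of the list, minus the MUTE mean, was -0.46 to -0.29 in MUTEv5#2. It was -0.34 to -0.32 in MUTEv5#5 and -0.57 to -0.43 in MUTEPPP#3. CHLM, which methylates magnesium protoporphyrin, was at 577, 488 and 517 CPM in MUTE and at 370, 358 and 390 CPM in MUTEv5#2 (log2 fold change -0.50, SE 0.0971, adjusted p = 0.0249). CHLD, a subunit of magnesium chelatase, fell by 0.46 on the log2 scale and CH1, which makes chlorophyll b, fell by 0.71. The call of CH1 (adjusted p = 0.0494) was lost under most alternatives. The list of 10 genes of the plastid-encoded RNA polymerase and sigma factors had a median of -0.36 and no call, and the median was -0.23 without MUTE replicate 1.

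These counts rested on the libraries named above. No gene of the lists photosystems, antenna and Rubisco, chlorophyll synthesis, Calvin cycle or photorespiration was called without replicate 1 or 2 of either line. The same held for the covariate and for only the 6 libraries. Without MUTE replicate 3 the counts were 0, 0, 2 and 1. Leaving out MUTEPPP#3 replicate 2 gave 0 photosystem genes, 3 Calvin cycle genes and 3 photorespiration genes. Without MUTEPPP#3 replicate 1 there were 2 photosystem and 5 chlorophyll genes, and without MUTEPPP#3 replicate 3 there were 5 chlorophyll genes. MUTEv5#2 replicate 3 left out gave 2 photosystem genes, and MUTEv5#5 replicate 3 left out gave 3 photorespiration genes. Under library totals as the only scaling the medians were -0.22, -0.31, -0.29 and -0.30, with 0, 0, 3 and 2 calls.

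Markers of other cell types were read beside these genes. The 11 genes of the list mesophyll and vascular all had values below 0 (median -0.19, none called), and their summed level was 14730 to 16120 CPM in MUTE and 10670 to 13330 CPM in MUTEv5#2. LHCA4 is also on the list photosystems, antenna and Rubisco, so that sum repeats some of the photosynthesis values. The part of these cell types in the photosynthesis result was not tested. The list epidermal identity and cuticle had no call over 15 genes and a median of -0.08, which was 0.0055 without MUTEv5#2 replicate 3. The 11 root cell types genes summed to 311.8 to 322.7 CPM in MUTE and 268.0 to 302.5 CPM in MUTEv5#2, with 1 rise, PLT2 (0.99, adjusted p = 0.0293), a regulator of the root stem cell niche, whose call was lost without any 1 of the 6 libraries. Of 13 seed storage and maturation genes only 2 could be tested, and they summed to at most 1.86 CPM in any of the 6 libraries.

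Several genes of light signalling fell. Phytochrome-interacting factors (PIFs) are transcription factors that phytochromes inactivate in light and that drive elongation in shade and dark. Of 18 genes of the list 6 fell (33.3% beside 3.55% of all genes) and none rose, with a median of -0.32. PIF5 was at 195, 167 and 157 CPM in MUTE and at 95.0, 77.9 and 100.1 CPM in MUTEv5#2 (log2 fold change -0.92, SE 0.185, adjusted p = 0.0265), and PIF4 was at 104, 137 and 121 CPM and at 57.8, 53.4 and 79.1 CPM (-0.93, SE 0.175, adjusted p = 0.0229). In both genes all MUTEv5#2 libraries were below all MUTE libraries.

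PIF1, which restrains chlorophyll synthesis in the dark, was at 43.2, 43.5 and 39.2 CPM and at 24.9, 23.1 and 23.0 CPM (log2 fold change -0.83, adjusted p = 0.0105). The blue light receptor CRY1 fell by 0.66, HFR1, a factor that counteracts PIFs, fell by 0.96, and COP1, a ubiquitin ligase that removes light-response factors, fell by 0.34. PIF7 had a value of -1.15 (adjusted p = 0.0550) and PIF3 of 0.68 (0.0668), while the photoreceptor genes PHYA and PHYB had values of -0.05 and 0.00. The light signalling count was 2 without MUTE replicate 1, 1 without MUTE replicate 2 or MUTEv5#2 replicate 1 and 0 without MUTEv5#2 replicate 2, and 0 with the covariate. MUTEPPP#3 was lower than MUTEv5#2 in COP1 (-0.39, adjusted p = 0.0402).

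B-box zinc finger factors act in light and flowering-time responses. Of 20 genes with that product name (B-box factor, by product name, a family chosen after its values were seen) 4 fell (20.0% beside 3.55% of all genes) and none rose. BBX14 was at 282, 166 and 160 CPM in MUTE and at 76.1, 45.4 and 60.5 CPM in MUTEv5#2 (log2 fold change -1.74, SE 0.346, adjusted p = 0.0263), with no overlap. BBX27, BBX18 and BBX32 fell by 1.21, 1.47 and 2.03. None of the 4 was called without replicate 1 or 2 of either line.

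The morning clock genes had a median of -1.06 over 13 genes, every value below 0, and a single call (7.69% beside 3.55% of all genes). That median was -0.29 without MUTE replicate 1. The clock of Arabidopsis runs on factors such as CCA1 and LHY that peak at dawn and repress the evening genes. RVE1, a close relative of these that links the clock to auxin synthesis, was at 51.6, 36.8 and 28.3 CPM in MUTE and at 5.92, 5.47 and 9.66 CPM in MUTEv5#2. The log2 fold change was -2.47 (SE 0.409, adjusted p = 0.0153), with wide separation of the groups, and the call was lost without MUTEv5#2 replicate 1 or 2. Without MUTEPPP#3 replicate 1 or 3, 2 morning clock genes were called. LHY had a value of -1.91 and CCA1 of -1.18, with adjusted p of 0.3768 and 0.3182. For CCA1 the MUTE libraries were at 297, 69.8 and 97.8 CPM and the MUTEv5#2 libraries at 70.0, 72.8 and 62.4 CPM, so MUTE replicate 2 lay within the range of MUTEv5#2 and MUTE replicate 1 far above it. The 12 evening clock genes had a median of -0.17 and the 8 photoperiod factors of -0.75, with no call in either. The photoperiod factors median was -0.22 without MUTE replicate 1. The evening clock median was -0.28 without MUTE replicate 1, 0.16 without MUTE replicate 2, -0.034 without MUTEv5#2 replicate 1 and -0.32 without MUTEv5#2 replicate 3. The 3 MUTEv5#5 libraries had RVE1 at 19.2, 49.3 and 20.8 CPM, and the 3 of MUTEPPP#3 at 5.01, 2.72 and 3.44 CPM.

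The windows of 250 bases before the annotated starts of RVE1 and PIF5 are shown because each holds a G-box, CACGTG (capitals), the E-box form that PIFs and many other bHLH factors can bind. RVE1 lies on the minus strand with its window at chr5:5692993-5693242, the G-box 105 bases before the start. PIF5 is also on the minus strand, with its window at chr3:21830838-21831087 and the G-box 159 bases before the start (TAIR10.1, RefSeq).
RVE1: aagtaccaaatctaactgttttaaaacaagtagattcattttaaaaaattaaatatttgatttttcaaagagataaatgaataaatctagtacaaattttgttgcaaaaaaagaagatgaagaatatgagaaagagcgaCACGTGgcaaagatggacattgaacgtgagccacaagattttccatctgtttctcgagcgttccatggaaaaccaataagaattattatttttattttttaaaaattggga
PIF5: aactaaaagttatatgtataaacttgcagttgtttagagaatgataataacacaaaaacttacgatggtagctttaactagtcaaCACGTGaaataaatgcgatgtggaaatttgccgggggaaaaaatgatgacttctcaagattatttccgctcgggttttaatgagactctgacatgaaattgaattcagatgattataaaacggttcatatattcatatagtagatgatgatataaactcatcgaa
A G-box was in 7 of 13 windows of morning clock genes (53.8%), in 74 of the 804 genes that fell (9.2%), in 18 of the 336 that rose (5.36%) and in 1571 of 22506 windows of all genes (6.98%). It reads the same on both strands. The I-box GATAAG, known from light-regulated promoters and searched on both strands, was in 137 of the 804 genes that fell (17.0%) and in 2781 of all windows (12.4%). A search meant for the core of the hypoxia-responsive promoter element used a pattern without the spacing of the published element. Its matches therefore cannot show whether that element is present or absent, and their counts are left out. The motif called evening element was in 1 of 13 windows of morning clock genes (7.69%) and in 530 of all windows (2.35%). No statement about the factors follows from these matches.

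Several genes of iron uptake and its control fell in MUTEv5#2. Under iron shortage, the bHLH factors of subgroup Ib (BHLH38, BHLH39, BHLH101) act with FIT to switch on the ferric reductase FRO2 and the transporter IRT1 in the root. Of 15 iron signalling genes 3 fell and none rose (median -0.42), and of 14 genes of iron uptake and transport 2 fell and none rose (median -0.28). These are 20.0% and 14.3% beside 3.55% of all genes. FRO2 was at 12.1, 3.34 and 7.56 CPM in MUTE and at 0.896, 1.73 and 1.69 CPM in MUTEv5#2 (log2 fold change -2.42, SE 0.493, adjusted p = 0.0280). BHLH38 was at 3.54, 1.02 and 0.997 CPM and at 0.404, 0.317 and 0.154 CPM (-2.67, SE 0.599, adjusted p = 0.0341). Neither gene's groups overlapped.

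AT2G30766, on the iron signalling list and without a symbol in the annotation, was at 5.75, 2.49 and 2.17 CPM in MUTE and at 0.110, 0.602 and 0.329 CPM in MUTEv5#2 (log2 fold change -3.32, adjusted p = 0.0189). OPT3, an iron transporter of the phloem, was at 91.3, 99.0 and 83.1 CPM and at 54.8, 57.8 and 56.7 CPM (-0.69, SE 0.112, adjusted p = 0.0144), and BTS, a ubiquitin ligase that restrains the response, fell by 0.57. IRT1 was at 27.2, 10.9 and 23.9 CPM in MUTE and at 0.492, 3.06 and 0.0560 CPM in MUTEv5#2, a value of -4.11 that missed the threshold (adjusted p = 0.0579). BHLH39, BHLH101 and FIT had values of -1.32, -1.57 and 0.10. On the side of storage, the ferritin gene FER2 rose from 2.13, 1.48 and 1.76 CPM to 3.36, 2.85 and 2.62 CPM (0.72, adjusted p = 0.0313), the only call among 10 iron storage and excess genes, all of whose values were above 0.

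Both falls on the uptake list were lost without MUTEv5#2 replicate 1 or 2, and 1 was left without MUTE replicate 1 or 2. Of the 3 iron signalling calls none was left without MUTE replicate 1 or MUTEv5#2 replicate 1. One was left without MUTE replicate 2, MUTEv5#2 replicate 2 or 3 or MUTEPPP#3 replicate 2, and 5 were called without MUTE replicate 3. Leaving out MUTEv5#2 replicate 1 or 2 or MUTE replicate 2 or 3 ended the FER2 call. The 3 lines with altered protein stood close together in FRO2, with means of 1.44 CPM in MUTEv5#2, 1.2 CPM in MUTEv5#5 and 1.28 CPM in MUTEPPP#3 beside 7.67 CPM in MUTE. These comparisons share the MUTE libraries, and FRO2 did not pass in either direct contrast with MUTEv5#2 (adjusted p = 0.8875 and 0.8778).

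Genes tied to sugar and nitrogen status had mixed calls. BT2, a scaffold protein that responds to sugar, nitrate and hormones, was at 171, 324 and 309 CPM in MUTE and at 54.4, 58.3 and 115 CPM in MUTEv5#2 (log2 fold change -1.82, SE 0.432, adjusted p = 0.0402). BT5 was at 47.1, 33.9 and 52.5 CPM and at 7.49, 5.74 and 17.5 CPM (-2.12, SE 0.461, adjusted p = 0.0315). Both were chosen after their values were seen, their groups did not overlap, and MUTEv5#2 replicate 3 was the highest of its group in each. Neither call held without any 1 of the MUTE libraries, without MUTEv5#2 replicate 1 or 2 or without MUTEPPP#3 replicate 2, and 1 of the 2 genes of this BT scaffold list was called without MUTEv5#5 replicate 1 or 3.

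Of 12 sugar starvation genes, all below 0 with a median of -0.78, DIN2, a beta-glucosidase induced in the dark, passed at 4.65, 3.49 and 2.15 CPM in MUTE and 1.98, 1.78 and 1.76 CPM in MUTEv5#2 (-0.90, adjusted p = 0.0466). The DIN2 call is 8.33% of the list, beside falls in 3.55% of all genes. It was lost under 11 of the 12 omissions of a library, and without MUTEv5#2 replicate 3 the sugar starvation list had 4 calls and a median of -1.22. Of 11 nitrate response genes G6PD3, a plastid glucose-6-phosphate dehydrogenase, rose by 1.51 (adjusted p = 0.0466) and the repressors LBD37 and LBD38 fell by 0.46 and 0.51. G6PD3 stood at 15.0, 27.3 and 19.9 CPM in MUTE and at 72.9, 78.9 and 25.1 CPM in MUTEv5#2, so its groups overlapped. At most 1 nitrate call was left with any library of the 12 left out. The GATA factor CGA1, which promotes chloroplast development and responds to cytokinin and nitrate, was at 16.8, 20.2 and 15.1 CPM and at 3.21, 4.46 and 6.14 CPM (-1.91, SE 0.425, adjusted p = 0.0332). BMY3, annotated as a beta-amylase, fell by 1.99. CGA1 and BMY3 too were picked after their values were seen.

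The cytokinin, auxin, jasmonate and abscisic acid lists each held 1 or 2 calls, all of them falls. These are 8.33%, 11.1%, 7.14% and 5.88% of the genes tested, beside 3.55% of all genes. ARR9, a response regulator induced by cytokinin, was at 75.9, 78.0 and 69.1 CPM in MUTE and at 34.8, 31.4 and 48.7 CPM in MUTEv5#2 (log2 fold change -0.96, SE 0.142, adjusted p = 0.0105), the only call among 12 cytokinin response genes. Without MUTEv5#2 replicate 1 that call was lost, and without MUTEv5#2 replicate 3 there were 3. Of 18 auxin response genes the repressors IAA14 and IAA16 fell, by 0.94 and 0.42. LOX2, a lipoxygenase of jasmonate synthesis, was at 80.6, 99.5 and 70.0 CPM and at 33.7, 39.4 and 30.2 CPM (-1.28, SE 0.212, adjusted p = 0.0153) and was the only call of 14 on the jasmonate list. RAB18, a dehydrin induced by abscisic acid, fell by 1.95 and was the only call of 17. All of these calls but that of ARR9 were lost without MUTE replicate 2 or MUTEv5#2 replicate 1 or 2, those of IAA14, IAA16 and RAB18 also without MUTE replicate 1, and that of IAA16 also without MUTE replicate 3. MAM3, which elongates the side chain of aliphatic glucosinolates, rose by 0.80 (adjusted p = 0.0392). It was the only call of 17 on its list (5.88% beside 1.48% of all genes). The MAM3 call was lost without MUTE replicate 2 or 3, any 1 of the MUTEv5#2 libraries, MUTEv5#5 replicate 1 or 3 or MUTEPPP#3 replicate 2. Without MUTEv5#5 replicate 1 a different member of the aliphatic glucosinolate list passed.

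Several lists held no call in either direction, beside 5.04% of all genes called. They covered copper economy, the cold regulon, heat shock, salicylic acid, gibberellin and brassinosteroid synthesis, phosphate and sulphur limitation, trichome and root hair patterning, starch, lipid reserves, flavonoids, indole glucosinolates, DNA replication and mitosis. On lists this short, the absence of a call does not show a lack of change. Touch and early stress genes had a median of -1.07 with all 12 values below 0, and of -0.15 without MUTE replicate 3. Replicates differed widely there: the summed level was 282.7, 574.8 and 1000 CPM in MUTE and 309.6, 220.6 and 603.2 CPM in MUTEv5#2. All 14 DNA replication genes had values above 0 (median 0.18), and that DNA replication median was 0.053 without MUTEv5#2 replicate 1 and 0.28 without MUTEv5#2 replicate 3. The 14 genes of mitosis and cytokinesis had a median of 0.12, which was 0.040 without MUTE replicate 1, 0.21 without MUTEv5#2 replicate 1 and -0.0005 without MUTEv5#2 replicate 3. Under DESeq2 some of these lists held up to 3 calls.

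**Figure D4:**
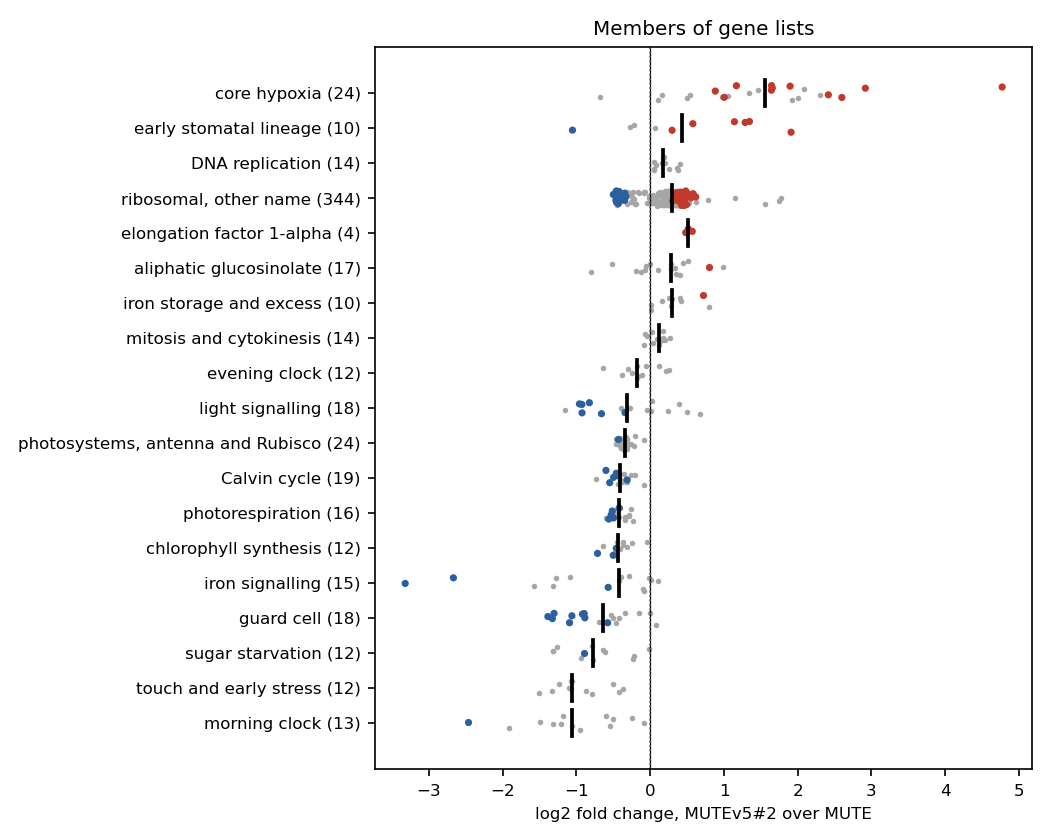
Log2 fold change of MUTEv5#2 over MUTE for the members of 19 gene lists, with the number tested in brackets. Red and blue points passed as higher and lower, grey points did not, black bars are list medians and the dotted line is the median of all genes. The core hypoxia list has the highest median (1.55), and touch and early stress (-1.07) and the morning clock (-1.06) have the lowest with all libraries. Without MUTE replicate 3 the touch and early stress median is -0.15, and without MUTE replicate 1 the morning clock median is -0.29.

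**Figure D5:**
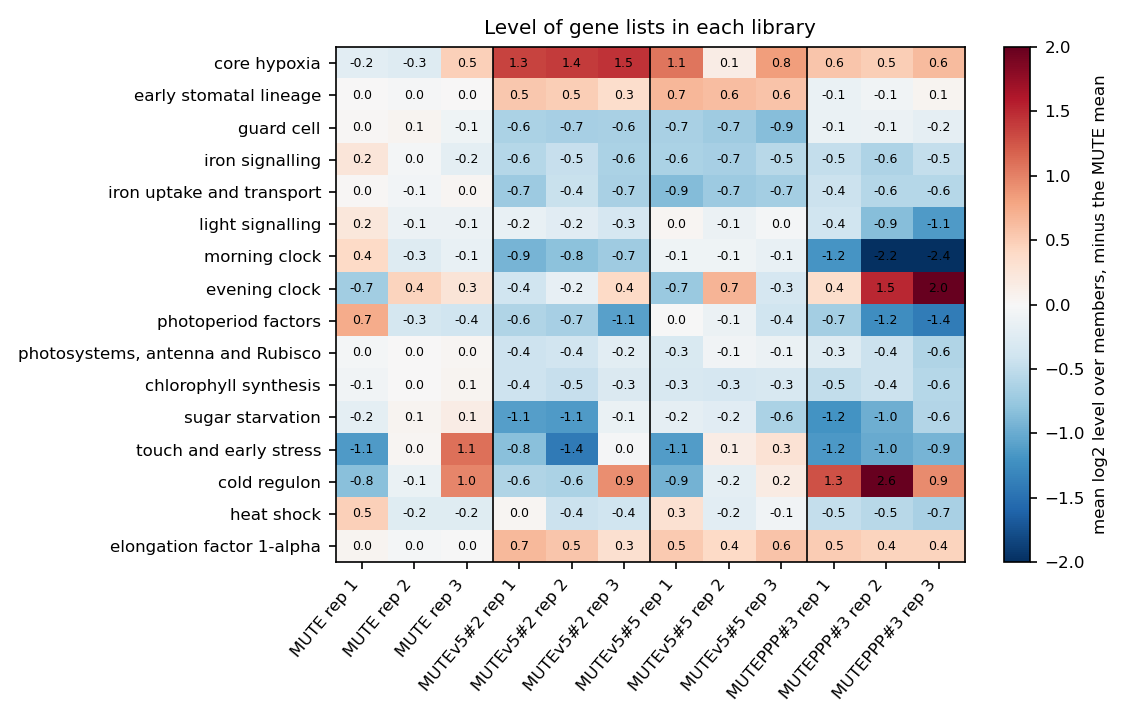
Mean log2 level over the members of 16 gene lists in each of the 12 libraries, minus the mean of the 3 MUTE libraries; red is higher and blue lower. The core hypoxia row is between 1.35 and 1.45 in the 3 MUTEv5#2 libraries, while touch and early stress runs from -1.13 to 1.1 within MUTE alone.

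Genes of mature guard cells fell and several early lineage genes rose. Of 18 guard cell genes 9 fell (50.0% beside 3.55% of all genes) and none rose, and the summed level was 1836 to 2053 CPM in MUTE and 953.7 to 1020 CPM in MUTEv5#2. Most of the difference in that sum came from TGG1, which averaged 1204.8 CPM in MUTE and 487.97 CPM in MUTEv5#2. The median log2 fold change of the list was -0.64. In 15 of the 18 the groups did not overlap, beside 16.1% of all genes in that direction. Of the 10 early stomatal lineage genes 6 rose, beside 1.48% of all genes, and 1, the protease gene SDD1, fell. Of 12 guard mother cell step genes MUTE rose and FAMA fell. The guard cell count was 5 without MUTE replicate 2, 4 without MUTEv5#2 replicate 1 or 2 and 2 with the covariate. No guard mother cell step gene was called without replicate 1 or 2 of either line, only 1 without MUTE replicate 3 and 3 without MUTEv5#2 replicate 3.

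The widest changes belonged to single loci with little or no annotation. AT3G01345, an uncharacterised protein gene at chr3:129138-130749, was at 1.08, 0.266 and 0.311 CPM in MUTE and at 205, 184 and 170 CPM in MUTEv5#2 (log2 fold change 8.38, SE 0.716, adjusted p = 0.000471). It was at 0.533 to 1.86 CPM in MUTEv5#5, which carries the same protein, and at 1.12 to 2.90 CPM in MUTEPPP#3. Both direct contrasts with MUTEv5#2 passed (-7.37, adjusted p = 0.00271, and -6.69, adjusted p = 0.00217), so this locus was high in MUTEv5#2 and in none of the other 9 libraries.

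AT2G06002, a non-coding RNA gene, was at 0.698, 0.416 and 0.348 CPM in MUTE and at 8.41, 6.10 and 9.17 CPM in MUTEv5#2 (log2 fold change 4.01, adjusted p = 0.000414), and MUTEv5#5 and MUTEPPP#3 averaged 0.628 and 0.522 CPM. AT5G26270 rose from 23.8, 24.7 and 26.0 CPM to 58.6, 64.0 and 67.3 CPM (1.35, SE 0.113, adjusted p = 0.000471) and was at 19.2 to 21.2 CPM in MUTEv5#5 and 19.1 to 25.9 CPM in MUTEPPP#3. LAF1, a MYB factor of phytochrome A signalling, rose from 0.691, 0.811 and 0.585 CPM to 3.04, 3.52 and 3.11 CPM (2.21, adjusted p = 0.000571). In these 3 genes MUTEv5#2 was above both other variant lines by the direct contrasts.

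Other loci changed against MUTE without a difference called between the variant lines. RE2, a retroelement pseudogene, was at 4.30, 3.62 and 4.16 CPM in MUTE and at 0.132, 0.100 and 0.182 CPM in MUTEv5#2 (log2 fold change -4.85, SE 0.369, adjusted p = 0.000288), and MUTEv5#5 and MUTEPPP#3 averaged 0.187 and 0.280 CPM. AT1G27565 fell by 4.11, the RING-type gene APD3 by 3.52 and the pseudogene AT5G35777 by 3.34. ATMDAR2, whose name is that of a monodehydroascorbate reductase of the ascorbate cycle, rose from 15.5, 30 and 25.3 CPM to 108, 119 and 109 CPM (2.24, SE 0.189, adjusted p = 0.000471), and averaged 62.2 and 104 CPM in the other variant lines. The non-coding RNA gene AT4G04223 rose by 2.59 and, apart from these, was higher in MUTEPPP#3 than in MUTEv5#2 (direct contrast 1.08, adjusted p = 0.0113). None of RE2, AT1G27565, APD3, AT5G35777 and ATMDAR2 passed in a direct contrast with MUTEv5#2.

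Among protein-coding genes that fell, AT1G22690, of the gibberellin-regulated family, was at 63.9, 66.1 and 54.9 CPM in MUTE and at 16.5, 11.4 and 15.1 CPM in MUTEv5#2 (log2 fold change -2.11, SE 0.143, adjusted p = 0.000182). It was close to that in MUTEv5#5 (13.6 CPM) and higher in MUTEPPP#3 (45.6 CPM), a direct contrast of 1.67 (adjusted p = 0.00115). The transporter genes AT1G68600 and ABCG31 fell by 1.52 and 1.66, and MUTEPPP#3 was above MUTEv5#2 in both, with direct contrasts of 1.24 and 1.18. The cytochrome P450 genes CYP71B12 and CYP71A25 fell by 2.39 and 2.03. AT1G31920, with a repeat domain of the TPR type, fell by 1.82, and PP2-B13, of the phloem protein family, fell by 2.55. ORS1 rose by 2.57. Of 175 genes with that product name (cytochrome P450, by product name, chosen after its values were seen) 2 rose and 8 fell, 1.14% and 4.57%, near the 1.48% and 3.55% of all genes. The P450 count was 5 without MUTE replicate 1, 3 without MUTE replicate 2 or MUTEv5#2 replicate 1 and 2 without MUTEv5#2 replicate 2, all of them falls.

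Calls were spread over the genome and kinds of gene. Each of the 5 nuclear chromosomes had 4.74% to 5.33% of its tested genes called, and none of 103 plastid and 26 mitochondrial genes passed. Plastid genes other than ribosomal RNA took 0.0184% to 0.0555% of counts in MUTE and 0.04% to 0.116% in MUTEv5#2. With shares this small and variable between replicates, the absence of calls there does not show a lack of change. Of 21261 protein-coding genes 307 rose and 787 fell (5.15%), and of 444 long non-coding RNA genes 7 rose and 3 fell (2.25%). Over all genes the direct contrast of MUTEv5#5 with MUTEv5#2 called 15 (0.0663%), and that of MUTEPPP#3 with MUTEv5#2 called 558 (2.47%).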

How the data were processed

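Messenger RNA of 12 seedling libraries was sequenced with a stranded TruSeq kit, per the labels. The authors deposited counts, a whole number per gene and library, in 1 table of 23098 entries. Per the submitters' processing notes, the build was TAIR10 and the tools included StringTie 2.1.3b, Bowtie2 2.3.4.1, HISAT2 2.1.0, DESeq2, FastQC and Trimmomatic 0.38. The sources used here do not say which of them counted, or with which strand setting. The lowest count in any library was 1, and 80 entries stood at 1 in all libraries, so a level near 0.00915 CPM is not separable from an absence of reads. Of the entries, 23071 matched a RefSeq gene by identifier, and the remaining 27, which name no gene and held at most 0.000596% of any library, were left out.

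Differences were tested in edgeR 4.0.16 (R 4.3.3) by quasi-likelihood, with TMM scaling and filterByExpr (22636 genes tested, 435 left out). All 12 libraries entered a single fit of 4 group means, with Benjamini-Hochberg adjustment over all genes and a threshold of 0.05. The common biological coefficient of variation was 0.215. SE was derived from the log2 fold change and its F value. Alternatives were DESeq2 1.42.0, limma 3.58.1, other scalings and filters, fewer libraries, a block, a covariate and each library left out. The steps were tested on simulated data.

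Named genes were MUTE; the 10 widest rises and falls with no overlap and at least 1 CPM; the 6 called genes of highest level and of smallest p in each direction; and of each list all members called, or otherwise up to 4 of smallest p. Of 564 list entries in 41 lists 531 were in the table. Members and lists were chosen with earlier results of these data known. Families taken from product names, the lists of the Calvin cycle, photorespiration, elongation factor 1-alpha and BT genes, and the windows shown were chosen after the values were seen.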

Additional observations from a re-analysis of the deposited data

Results flagged for a closer look

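Every gene named by the rule was looked at for a difference between MUTEv5#2 and the other variant lines: 170 genes in 2 direct contrasts, from the same fit and with p-values adjusted over all genes. The test of the difference itself passed 40 times, 5 for MUTEv5#5 minus MUTEv5#2 and 35 for MUTEPPP#3 minus MUTEv5#2. Values are log2 fold changes, below 0 where MUTEv5#2 was the higher line. Many of the genes were named for a difference between MUTEv5#2 and MUTE, so the 2 contrasts share the MUTEv5#2 libraries with the comparison that chose them.

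MUTEv5#5 carries the same protein as MUTEv5#2 and was lower than it in AT3G01345 (-7.37), AT2G06002 (-3.64), AT5G26270 (-1.66) and LAF1 (-1.39), and higher in LBD26 (1.62). MUTEPPP#3 was lower in the same first 4 loci, by -6.69 for AT3G01345, -3.91 for AT2G06002, -1.53 for AT5G26270 and -1.07 for LAF1. Those loci were thus higher in MUTEv5#2 than in both other variant lines.

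In stomatal lineage genes MUTEPPP#3 was lower than MUTEv5#2 for the early genes BASL (-1.09), TMM (-0.96), SPCH (-0.88), EPF2 (-1.13), POLAR (-0.71) and SCRM (-0.54), and higher for SDD1 (0.79). It was higher for FAMA (0.89) and for the guard cell genes TGG1 (1.00), TGG2 (0.78), BLUS1 (0.96), KAT2 (0.68), SCAP1 (0.82), HT1 (0.82), AT1G23200 (2.09) and SLAC1 (1.08).

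Among the other genes MUTEPPP#3 was higher for AT1G22690 (1.67), AT1G68600 (1.24), ABCG31 (1.18), AT4G04223 (1.08), the copper-zinc superoxide dismutase gene CSD1 (1.05), the lipoxygenase gene LOX2 (1.16) and ACD6 (2.72), a regulator of salicylic acid defence. It was lower for the copper transporter gene COPT2 (-5.77), the metal transporter gene YSL2 (-1.48), the sigma factor gene SIG5 (-1.94), COP1 (-0.39), CH1 (-0.98), LSU2 (-1.21), AT3G27220 (-1.14) and AT1G33055 (-2.15).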

How the results depend on the processing

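The count of genes called was 1140 (336 higher, 804 lower). It moved to 2661 (1022 and 1639) with DESeq2, to 171 (40 and 131) with only the 6 libraries compared and to 74 (28 and 46) with the ribosomal RNA and organelle share as a covariate. With library totals as the only scaling, 1001 were higher and 400 lower. Leaving out each library in turn gave 78 to 1399 in all, 28 to 443 higher and 50 to 956 lower. With the replicate block the count was 1245 (357 and 888). The main fit did not take the numbers as pairs, since the labels state no block. In their deviations from the group means, same-numbered libraries of the 2 lines correlated at 0.298, 0.044 and 0.484. Libraries of unlike number correlated at -0.417 to 0.262, and MUTE replicate 2 was closest to MUTEv5#2 replicate 3 (0.054). A batch shared by same-numbered libraries is therefore not excluded. With the block, 16 core hypoxia genes were called. All 1140 genes kept their sign under every alternative in which they were tested. The groups overlapped in only 1 of these genes, so leaving out a library could hardly turn a sign. Named genes that had passed stayed called in 1352 cases and lost the call in 496. Among named genes that had not passed, 52 cases gained a call and 16 changed sign. Under library totals CCH had a log2 fold change of 0.021, and without MUTE replicate 1 it was 0.015 for CCH, 0.17 for YSL2, -0.064 for CSD1, 0.035 for AT1G69570, 0.67 for HSP17.4, 0.17 for HSP90.1, 0.33 for HSP70 and 0.032 for SQD1. Without MUTE replicate 2 it was 0.047 for GWD1 and 0.078 for PHS1, without MUTE replicate 3 it was 0.12 for CBF3, and without MUTEv5#2 replicate 2 it was 0.078 for COPT2 and -0.027 for CSD1. With the covariate it was 0.00028 for COPT2 and -0.066 for CSD1. Over the other omissions of a library these genes reached -0.196 for CCH, -0.302 for YSL2, -0.546 for COPT2, 0.193 for CSD1, -1.51 for AT1G69570, -1.74 for CBF3, -1.81 for HSP17.4, -1.03 for HSP90.1, -1.33 for HSP70, -0.539 for SQD1, -0.839 for GWD1 and -0.791 for PHS1. The cause of these changes was not tested. At at least 117868477 counts a library, depth limits only the lowest genes, and the spread between pools of seedlings sets the precision.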
